A study of Mus musculus with 19 samples.

Results

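The clustered protocadherins are adhesion proteins of the neuronal surface. They are encoded in 3 tandem arrays of genes on chromosome 18, called alpha, beta and gamma. Here they were taken as every protein-coding gene of the count tables whose symbol in the GRCm38 annotation begins with Pcdha, Pcdhb or Pcdhg. This gave 57 genes of the 47069 deposited, 14 in the alpha, 22 in the beta and 21 in the gamma cluster. In GRCm38, all 57 lie on the plus strand of chromosome 18, the alpha genes between bases 36930184 and 37187661, the beta genes between 37264938 and 37524479 and the gamma genes between 37661793 and 37841873.

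Each alpha and gamma gene has a large first exon of its own, the variable exon, which encodes the extracellular cadherin repeats and the membrane span and has its own promoter. It is spliced to a few constant exons that all genes of the cluster share and that encode the common end of the cytoplasmic tail. Beta genes consist of a single exon and have no constant part. In most neurons, a cell transcribes only a small and largely random set of the alternate genes, chosen through promoter contacts with distant enhancers that depend on CTCF and cohesin, while the C-type genes at the end of the alpha and gamma clusters are used by most neurons of a kind. The proteins of a cell pair at the membrane and bind matching sets on other membranes. In the retina, the gamma proteins are known for letting the dendrites of starburst amacrine cells avoid each other and for the survival of ganglion cells and interneurons.

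The study compared the transcriptomes of retinal ganglion cells (RGCs) that project to the same side of the brain (iRGCs) with those of RGCs that cross the midline (cRGCs), in mouse embryos at E16.5. Both populations came from embryos of the C57/DBA F1 strain, labelled WT, with male and female embryos pooled, and both carried the Rosa26 reporter that makes the nuclear envelope protein Sun1 fused to GFP after Cre recombination. GFP-positive cells were sorted by flow cytometry. The iRGCs came from Slc6a4-Cre retinas, in which a serotonin transporter transgene drives Cre. The cRGCs came from Pou4f2-Cre retinas, in which Cre stands in the Brn3b locus that most RGCs use, after the ventrotemporal region, where iRGCs arise, had been cut away. Cre leaves the reporter on in a cell and all its descendants, so the sort selects by the history of the promoter. RNA-seq was done on 3 libraries per population, and nothing in the labels says whether these came from separate litters, so p-values measure the spread between these libraries only.

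The libraries had 28193178 to 33638083 reads on genes. The clustered protocadherins took 10555 to 14540 of these reads in the iRGC libraries and 22275 to 24004 in the cRGC libraries. A read that falls in the constant exons could belong to any gene of the cluster, and the counting program assigns it to none, so the counts of alpha and gamma genes are those of the variable exons. The exonic bases that belong to a single gene are called its own bases below. They made up 46.5% of the exonic bases of Pcdha1 and 100% of those of a beta gene such as Pcdhb12. Levels are given as CPM (counts scaled to a common library size, here after TMM correction), and levels of different genes are compared as CPM per kilobase of own bases. Variable exons resemble each other. Of the 50-base windows within the own bases of a member, the median member had 96.7% that occur once in the region from the first alpha to the last gamma gene, and 15 members, most of them alpha genes, had under 90%, with 70.8% in Pcdha6 as the lowest. Counts of the members low in this share are uncertain, since reads from repeated windows align to more than 1 place and were not counted. Over the whole genome, alignments to more than 1 place made up 29.6%, 30.5% and 33% of the counting program's tallies in the iRGC libraries. In the cRGC libraries they made up 25.9%, 28.2% and 28.2%. The part of this loss in the differences below was not tested.

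Markers of RGCs and of other cells differed between the sorted populations. All 16 RGC markers examined had counts in all 6 libraries, and 15 of them were lower in iRGCs, with a median log2 fold change of -1.94 (iRGC over cRGC). Among them are Pou4f1 and Sncg, which the study reports as specific to cRGCs. Gap43, a protein of growing axons, had the highest level per kilobase of these markers in both populations, with 379, 510 and 895 CPM in the 3 iRGC libraries and 2390, 2094 and 2275 CPM in the 3 cRGC libraries. The neurofilament gene Nefm had 418, 525 and 975 CPM in the 3 iRGC libraries and 2131, 1810 and 2818 CPM in the 3 cRGC libraries. Summed over the list, the RGC markers had 2937, 3971 and 6049 CPM in iRGCs and 15680, 14080 and 17230 CPM in cRGCs. All 14 markers of retinal progenitors were higher in iRGCs (median log2 fold change 2.56), with sums of 10050, 8681 and 7653 CPM in iRGCs and 878, 2247 and 1427 CPM in cRGCs. Ccnd1, a cyclin of dividing progenitors, was the most abundant of them. Lhx2, Sox2 and Sox9, also on this list, are reported by the study as expressed in iRGCs.

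Other cells were also seen. Of the 10 endothelial markers, 6 were tested and all 6 were higher in iRGCs, while Cdh5, Tie1 and Adgrf5 had no count in any cRGC library. The endothelial sums were 461, 700 and 432 CPM in iRGCs and 86.5, 107 and 70.4 CPM in cRGCs, and Kdr, which retinal progenitors express too, was the most abundant, with 366, 321 and 418 CPM in iRGCs. Mural cell markers were higher in 3 of 4 tested, with sums of 132, 274 and 106 CPM in iRGCs and 20.8, 31.2 and 22.4 CPM in cRGCs. Notch3 was the most abundant, with 113, 117 and 83.5 CPM in iRGCs, while Abcc9 had 0.386, 26.0 and 0.221 CPM there. Microglial markers were higher in 4 of 6, with 15.3 to 24.3 CPM in iRGCs and 1.12 to 4.07 CPM in cRGCs, and Csf1r had the highest CPM in each iRGC library. Neither of the 2 fibroblast markers tested passed the threshold, with sums of 5.42 to 10.7 CPM in iRGCs and 7.07 to 7.88 CPM in cRGCs. Pdgfra was the most abundant fibroblast marker except in iRGC replicate 2, which had 6.74 CPM of Col3a1, a gene with no count in the other 5 libraries. Amacrine and horizontal cell markers were higher in 5 of 8, with sums of 317, 269 and 359 CPM in iRGCs and 148, 175 and 139 CPM in cRGCs, and Tfap2b was the most abundant of them in iRGCs. Photoreceptor precursor markers were higher in 4 of 4 tested, with 577 to 778 CPM in iRGCs and 97.0 to 190 CPM in cRGCs, led by Otx2, and Rcvrn had no count in any iRGC library. The starburst amacrine list was higher in 2 of 3 tested, most of it Sox2, which progenitors share. Slc6a4, whose promoter drives Cre in the iRGC line, had 2.06, 33.4 and 116 CPM in iRGC replicates 1, 2 and 3 and 48.1, 35.4 and 30.5 CPM in cRGCs, so it did not separate the populations, whereas Zic2, the transcription factor of iRGCs, was higher in every iRGC library (log2 fold change 1.34, SE 0.13, edgeR adjusted p = 0.000209). In bulk libraries such as these, fewer cells that use a gene and less RNA per cell cannot be told apart. According to the study, iRGCs are born later than cRGCs and were on average younger when collected. The part of age and of these differences in cell content in the results that follow was not tested, except where values are given.

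iRGC replicate 1 stood apart. It had the fewest genes with a count, 16564, against 17831 to 20283 in the others. Among genes with 50 to 150 counts in each of the other 2 libraries of the population, 63 of 877 (7.18%) had no count in this library, against 0% to 0.393% in the other libraries. Among the members, 6 had no count in at least 1 library, of which 4 were tested, and these 4 (Pcdha6, Pcdha8, the first of 2 genes named Pcdha11, and Pcdhb15) were at 0 only in iRGC replicate 1. iRGC replicate 2 stood apart in vascular markers, with 15.3, 81.3 and 0.158 CPM of Cdh5, 9.65, 53.0 and 0.284 CPM of Pecam1 and 3.76, 93.8 and 2.24 CPM of the mural gene Rgs5 in iRGC replicates 1, 2 and 3. The counts of members called are therefore also given without iRGC replicate 1 or 2. iRGC replicate 3 had the lowest share of reads in no gene, 8.09% of the tallies against 12.9% to 16.8% in the other libraries. Without it, 43 members were called lower.

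Clustered protocadherins were lower in iRGCs, and none was higher. Of the 57 members, 55 had enough counts to be tested and 44 of these (80.0%) were called lower in iRGCs, meaning an adjusted p-value under 0.1 by edgeR's quasi-likelihood test (Benjamini-Hochberg, over the 15941 tested genes). Among all tested genes, 23.1% were lower and 23.3% were higher. The count of members called higher was 0 in edgeR as in DESeq2 and limma voom, and none had a positive log2 fold change. All 55 were negative, from -2.64 to -0.34 with a median of -1.16, against a median of -0.003 for all tested genes. By the unadjusted p-value under 0.05, the same number, 44, passed, all of them lower. In 29 of the 55 members (52.7%), the fall was past the threshold and beyond 1 on the log2 scale, which held for 11.0% of all tested genes. In 48 of the 55 members (87.3%), every iRGC library lay below every cRGC library, which held for 28.2% of all tested genes.

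The members not tested were Pcdha4, with 3 counts in cRGC replicate 2 and none elsewhere, and Pcdhb1, with no count in any library, which allows up to 3 counts in each. Pcdha4 has 494 own bases, since 2410 of its 5768 exonic bases also belong to the read-through gene Gm42416, so its count says little of its level. Without iRGC replicate 1, 42 members were called lower. Calls were lost mostly when a cRGC library was left out, with 31, 29 and 32 members called lower without cRGC replicate 1, 2 and 3, and 37 and 43 without iRGC replicates 2 and 3. No member turned positive in any of these fits. Of the 55, 21 were called lower at an adjusted p under 0.1 in all 14 model fits, which varied the tool, scaling, filter, replicate block and libraries, and not the thresholds.

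**Figure D1:**
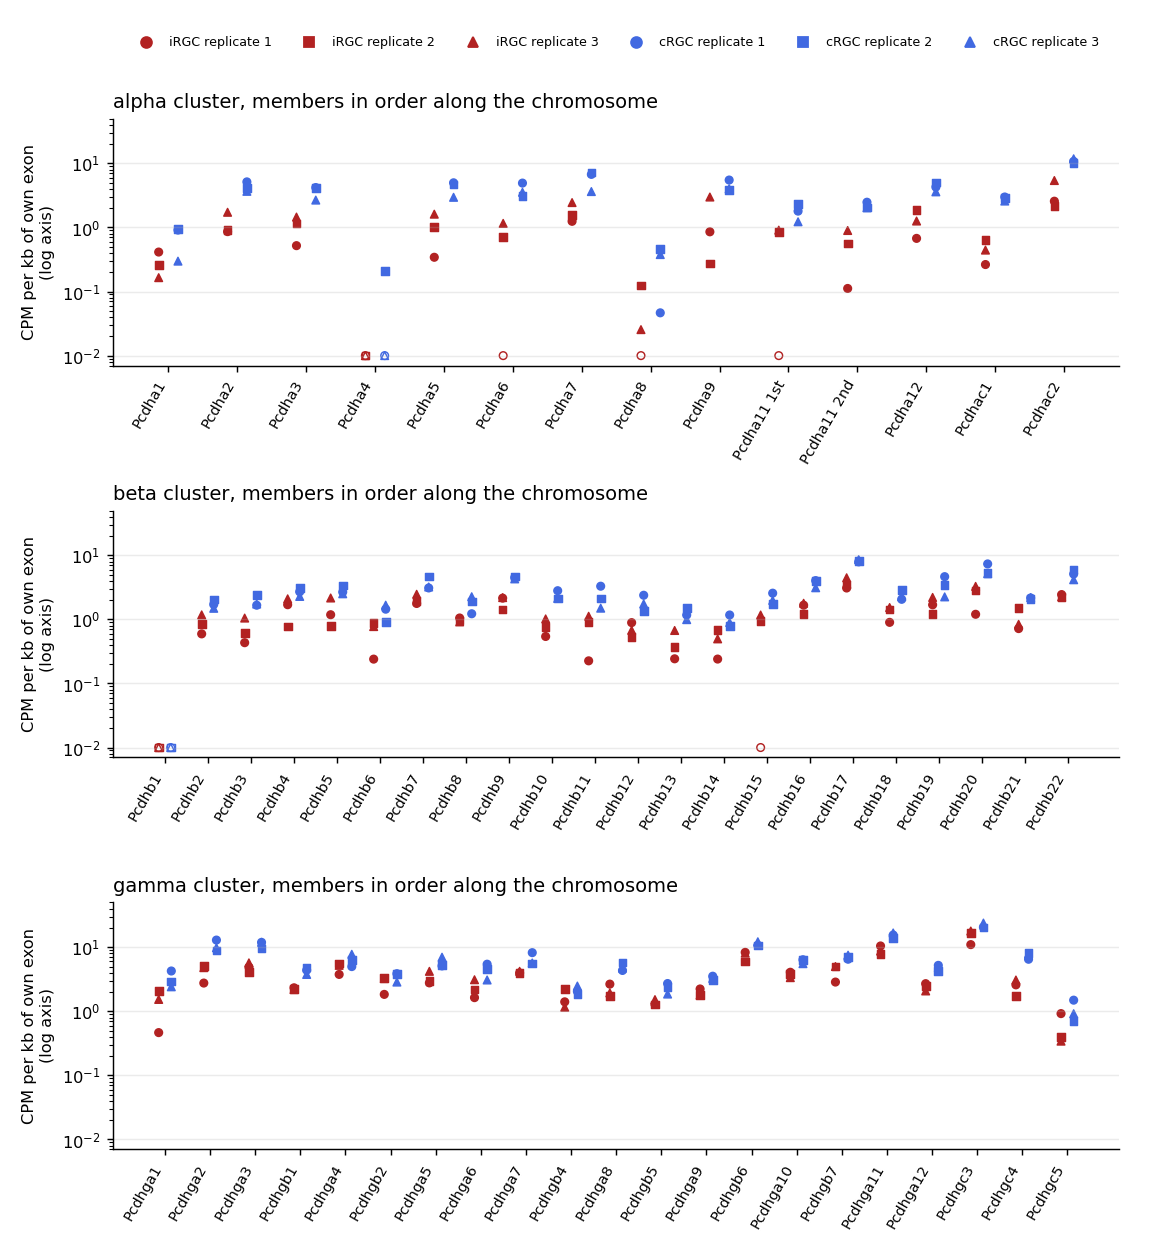
Level of each member in each library, as CPM per kilobase of own exonic bases on a log axis, in chromosome order within the alpha, beta and gamma clusters. Red marks are iRGC libraries, blue marks cRGC libraries, the shape gives the replicate, and open marks at the bottom stand for libraries with no count. Blue marks lie above red marks for most members, and Pcdhgc3 has the highest levels.

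The alpha cluster differed most. The summed level of its 14 genes was 20.7, 31.7 and 54.5 CPM in iRGC replicates 1, 2 and 3 and 143, 133 and 114 CPM in the cRGC replicates. The populations did not overlap, and the mean was 3.65-fold higher in cRGCs (35.6 ± 17.2 against 130 ± 14.9 CPM, SD, n = 3). Of 13 alpha genes tested, 10 were lower in iRGCs and 3 did not pass, with a median log2 fold change of -1.81 and a range from -2.64 to -1.36. In 11 of the 13, the libraries of the populations did not overlap. The difference had a different size in each iRGC library, with a median of -2.35 in replicate 1, -1.77 in replicate 2 and -1.20 in replicate 3 (log2 of the library's CPM over the cRGC mean, with 0.5 added). The log2 ratio of the sums was -1.87, and without iRGC replicates 1, 2 and 3 it was -1.60, -1.79 and -2.31. Without iRGC replicate 1, 9 alpha genes were called lower, and without iRGC replicate 2, 8 were.

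Within the alpha cluster, the C-type gene Pcdhac2 had the highest level per kilobase in both populations, 3.39 in iRGCs and 10.9 in cRGCs. Its CPM were 7.78, 6.62 and 16.4 in iRGCs and 32.5, 31.1 and 35.8 in cRGCs. The highest iRGC library thus stood at less than the lowest cRGC library (log2 fold change -1.69, SE 0.33, edgeR adjusted p = 0.00324). Pcdhac1, the other C-type gene, had the largest fall in the edgeR fit, close to that of Pcdha6, which was larger in DESeq2, limma voom and some other settings. It had 0.675, 1.64 and 1.14 CPM in iRGCs and 7.65, 7.32 and 6.62 CPM in cRGCs (log2 fold change -2.64, SE 0.46, edgeR adjusted p = 0.002). The 3 cRGC libraries agreed closely for both genes, with coefficients of variation of 7.34% for Pcdhac1 and 7.21% for Pcdhac2, while the iRGC libraries varied by 41.9% and 51.9%.

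Of the alternate alpha genes, whose promoters are subject to random choice, Pcdha7 had the highest level per kilobase of own bases on its strand, with 2.67, 3.34 and 5.23 CPM in iRGCs and 14.4, 15.4 and 7.78 CPM in cRGCs. It was lower in iRGCs with a log2 fold change of -1.74 (SE 0.38, edgeR adjusted p = 0.0062). If own bases under genes of the other strand are left out of the length, the second gene named Pcdha11 stands above Pcdha7 in the cRGC mean, where Pcdha7 then holds 10.1% of the alpha level, and below it in the iRGC mean (11.0% against 12.1%). Pcdha9 varied more. It had 2.12, 0.68 and 7.41 CPM in iRGCs and 13.7, 9.49 and 9.97 CPM in cRGCs, and its log2 fold change of -1.70 (SE 0.70) passed with all 6 libraries (edgeR adjusted p = 0.0885) but not when iRGC replicate 1 or 2 or any of the 3 cRGC replicates was left out, where the edgeR adjusted p was 0.122 to 0.202. Without 1 iRGC library, its log2 fold change ran from -1.20 (without replicate 2) to -2.98 (without replicate 3, edgeR adjusted p = 0.00306). Pcdha6 had no count in iRGC replicate 1, 1.61 and 2.65 CPM in the other iRGC libraries and 11.3, 7.04 and 8.10 CPM in cRGCs. Its log2 fold change of -2.63 (SE 1.04) was called by edgeR (adjusted p = 0.0752), and its 3 cRGC libraries lay far above the iRGC libraries, but DESeq2 gave an adjusted p of 0.183, and without iRGC replicate 2 or any of the 3 cRGC replicates the edgeR adjusted p was 0.119 to 0.191. Without iRGC replicate 1, the library in which it was at 0, it was called with a log2 fold change of -2.04 (edgeR adjusted p = 0.00599), and without iRGC replicate 3 with one of -3.45 (edgeR adjusted p = 0.052). Pcdha8 was close to the floor everywhere, with 0, 10 and 2 counts in iRGCs and 3, 33 and 29 counts in cRGCs, and did not pass (log2 fold change -2.52, SE 1.55, edgeR adjusted p = 0.237). Its log2 fold change was -1.95 without iRGC replicate 1 and -4.35 without iRGC replicate 2, and it did not pass in either fit. The others not past the threshold were Pcdha1 and the first Pcdha11. In the annotation used, 2 genes carry the name Pcdha11, and the first of them along the chromosome stands where RefSeq places Pcdha10.

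Most beta genes were lower in iRGCs. The summed level of the beta cluster was 101, 115 and 147 CPM in the iRGC libraries and 285, 279 and 239 CPM in the cRGC libraries, with no overlap and a mean 2.21-fold higher in cRGCs (121 ± 23.3 against 267 ± 25.1 CPM, SD, n = 3). Of 21 beta genes tested, 17 were lower in iRGCs, and in all 21 every iRGC library lay below every cRGC library. The 4 short of the threshold were Pcdhb2, Pcdhb4, Pcdhb6 and Pcdhb15, with edgeR adjusted p-values of 0.112, 0.123, 0.167 and 0.299. Log2 fold changes ranged from -1.62 to -0.83 with a median of -1.14. Without iRGC replicates 1 and 2, 16 and 14 beta genes were called lower, while 11 and 9 were called without cRGC replicate 1 and 2.

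Pcdhb17 was the most abundant beta gene per kilobase, with a level of 3.69 in iRGCs and 8.22 in cRGCs. Its CPM were 14.4, 16.4 and 20.8 in iRGCs and 36.9, 38.1 and 40.0 in cRGCs. It had the lowest adjusted p-value of all members in the edgeR fit with all libraries (log2 fold change -1.16, SE 0.18, edgeR adjusted p = 0.00101). That of Pcdhgc4 was close, and was lower than that of Pcdhb17 in DESeq2. Pcdhb22 had 15.0, 13.9 and 13.8 CPM in iRGCs and 31.4, 37.0 and 25.6 CPM in cRGCs (log2 fold change -1.14, SE 0.19, edgeR adjusted p = 0.0014). Pcdhb20 had 4.28, 10.0 and 11.7 CPM in iRGCs and 26.1, 18.8 and 18.4 CPM in cRGCs (log2 fold change -1.29, SE 0.36, edgeR adjusted p = 0.0191). Here iRGC replicate 1 was below the other iRGC libraries, and the populations did not overlap with or without it.

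The largest falls in the beta cluster were those of Pcdhb11, Pcdhb10 and Pcdhb15, all at lower levels. Pcdhb11 had 0.997, 3.99 and 4.95 CPM in iRGCs and 14.6, 9.42 and 6.62 CPM in cRGCs (log2 fold change -1.62, SE 0.57, edgeR adjusted p = 0.0487), and was not called without cRGC replicate 1, with an edgeR adjusted p of 0.172. Pcdhb10 had 1.54, 2.20 and 2.90 CPM in iRGCs and 8.00, 6.04 and 6.07 CPM in cRGCs (log2 fold change -1.60, SE 0.41, edgeR adjusted p = 0.013). Pcdhb15 rested on iRGC replicate 1, in which it had no count. The other iRGC libraries had 2.63 and 3.28 CPM and the cRGC libraries 7.19, 4.83 and 5.55 CPM. It did not pass with all libraries (log2 fold change -1.57, SE 1.10, edgeR adjusted p = 0.299) and passed without iRGC replicate 1 (-0.99, edgeR adjusted p = 0.0739).

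The gamma cluster was the most abundant and differed least. Its summed level was 217, 239 and 257 CPM in iRGCs and 428, 394 and 422 CPM in cRGCs, with no overlap and a mean 1.75-fold higher in cRGCs (238 ± 20.0 against 415 ± 18.2 CPM, SD, n = 3). Of its 21 genes, all tested, 17 were lower in iRGCs, and the libraries of the populations did not overlap in 16. Log2 fold changes ranged from -1.61 to -0.34 with a median of -0.77, and 5 of the 17 fell by more than 1. Of the gamma A genes, 11 of 12 were lower, with a median of -0.86. Of the gamma B genes, 4 of 6 were lower, with a median of -0.65. The genes short of the threshold were Pcdhga4, Pcdhgb2, Pcdhgb4 and Pcdhgc5. The first 3 of these had log2 fold changes of -0.39, -0.34 and -0.41, with SEs of 0.29, 0.31 and 0.34. Without cRGC replicate 3, 11 gamma genes were called lower, and without iRGC replicates 1 and 2 the counts were 17 and 15. The difference was of about the same size in each iRGC library, with medians of -0.84, -0.88 and -0.80 in iRGC replicates 1, 2 and 3.

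Of the alternate gamma genes, Pcdhga11 and Pcdhgb6 had the highest levels per kilobase. Pcdhga11 had 27.6, 20.7 and 23.0 CPM in iRGCs and 40.9, 36.4 and 44.1 CPM in cRGCs (log2 fold change -0.77, SE 0.16, edgeR adjusted p = 0.00521). Pcdhgb6 had 21.4, 15.3 and 20.8 CPM in iRGCs and 27.5, 27.5 and 31.3 CPM in cRGCs (log2 fold change -0.59, SE 0.18, edgeR adjusted p = 0.0311), and missed the threshold without cRGC replicate 3 (edgeR adjusted p = 0.123). Pcdhga2 had the most negative log2 fold change of the alternate gamma genes, and Pcdhga1 and Pcdhga8 followed, both at -1.23. Pcdhga2 had 7.11, 13.0 and 12.4 CPM in iRGCs and 33.3, 22.9 and 25.3 CPM in cRGCs (log2 fold change -1.33, SE 0.27, edgeR adjusted p = 0.0042). Pcdhga1 had 1.51, 6.77 and 4.98 CPM in iRGCs and 13.8, 9.53 and 7.84 CPM in cRGCs (log2 fold change -1.23, SE 0.51, edgeR adjusted p = 0.0877), and lost its call without any 1 of the 3 cRGC libraries or iRGC replicate 3, with an edgeR adjusted p of 0.11 to 0.254. The libraries of the populations did not overlap for any of these 5 genes.

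**Figure D2:**
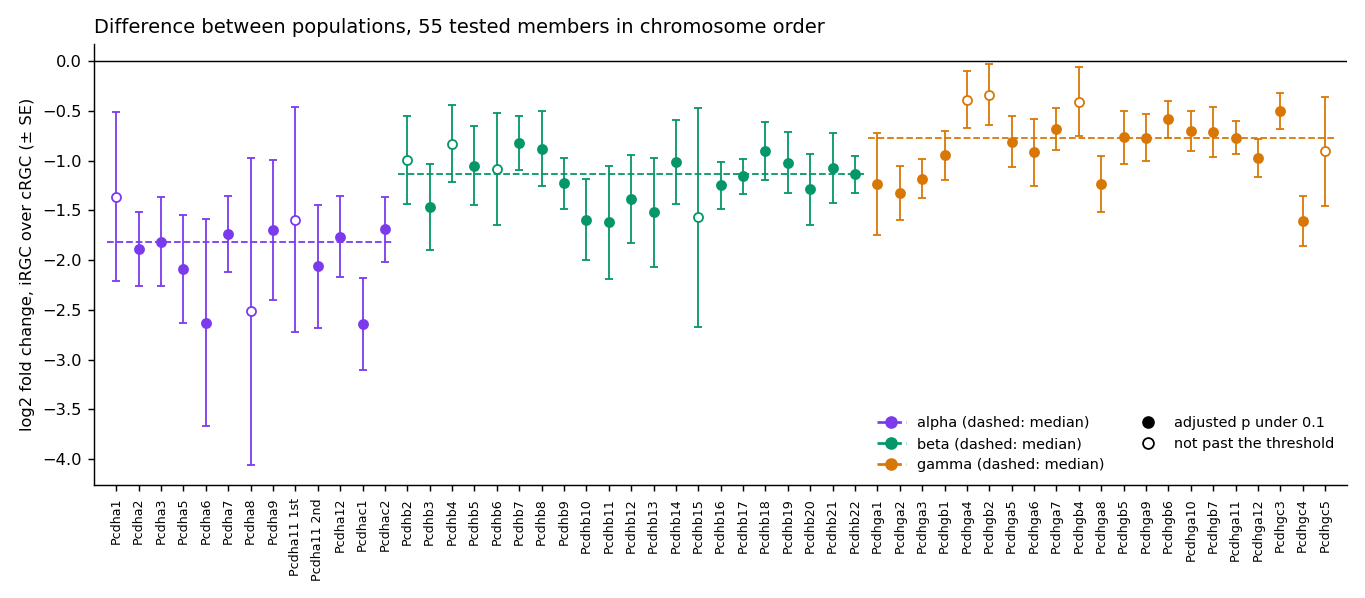
Log2 fold change (iRGC over cRGC, y axis) with its SE for the 55 tested members in chromosome order. Filled points passed the threshold, open points did not, and dashed lines give the medians of the alpha (-1.81), beta (-1.14) and gamma (-0.77) clusters. All points lie below 0.

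Position along the chromosome went with the size of the difference mainly because the clusters differed from each other. Over the 55 tested members, Spearman's rho of position with log2 fold change was 0.73. Within the 11 alternate alpha genes it was 0.01, within the 21 beta genes -0.18 and within the 18 gamma A and B genes 0.30. These values are descriptions, since the genes share libraries, neighbours and, in part, constant exons. The order of the genes by level was much alike in both populations. Spearman's rho between the levels per kilobase in iRGCs and in cRGCs was 0.90 over the 55 members and 0.95, 0.94 and 0.95 within the alternate alpha, beta and gamma A and B genes. Level and log2 fold change went together only weakly, with rho of 0.32 over the 55 members and 0.15, 0.12 and -0.02 within these sets.

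The log2 fold changes of the 5 C-type genes ran from -2.64 to -0.50, and differences between them were not tested. Pcdhgc3 had the highest level of all members, 15.2 CPM per kilobase in iRGCs and 21.5 in cRGCs, and is known for signalling to the Wnt pathway through Axin1. It had 37.2, 56.5 and 60.6 CPM in iRGCs and 69.2, 68.5 and 80.7 CPM in cRGCs, a small fall (log2 fold change -0.50, SE 0.19, edgeR adjusted p = 0.0597) that was not called without cRGC replicate 3 (edgeR adjusted p = 0.169) and was -0.31 without iRGC replicate 1 (edgeR adjusted p = 0.0981). Pcdhgc4, the gamma isoform on which neuronal survival is known to depend, fell most in its cluster, with 9.01, 5.97 and 10.7 CPM in iRGCs and 22.6, 28.2 and 27.5 CPM in cRGCs (log2 fold change -1.61, SE 0.25, edgeR adjusted p = 0.00105). Pcdhgc5 had 4.25, 1.82 and 1.58 CPM in iRGCs and 6.88, 3.24 and 4.23 CPM in cRGCs. Its populations overlapped and it did not pass (log2 fold change -0.91, SE 0.55, edgeR adjusted p = 0.229), but without iRGC replicate 1 it did (-1.49, edgeR adjusted p = 0.0466).

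Counts of Pcdhgc4 were 24.2%, 10.6% and 17.7% of those of Pcdhgc3 in the iRGC libraries and 32.7%, 41.1% and 34.0% in the cRGC libraries, with no overlap. This ratio within a library does not depend on scaling, and 3 libraries against 3 cannot give an exact permutation p below 0.1. The ratios of Pcdhac1 to Pcdhac2 (6.94% to 24.8% in iRGCs, 18.5% to 23.5% in cRGCs) and of Pcdhgc5 to Pcdhgc3 (2.60% to 11.4% and 4.73% to 9.95%) overlapped between the populations, as did that of Pcdhac2 to Pcdhgc4 (86.4% to 153% and 110% to 144%).

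**Figure D3:**
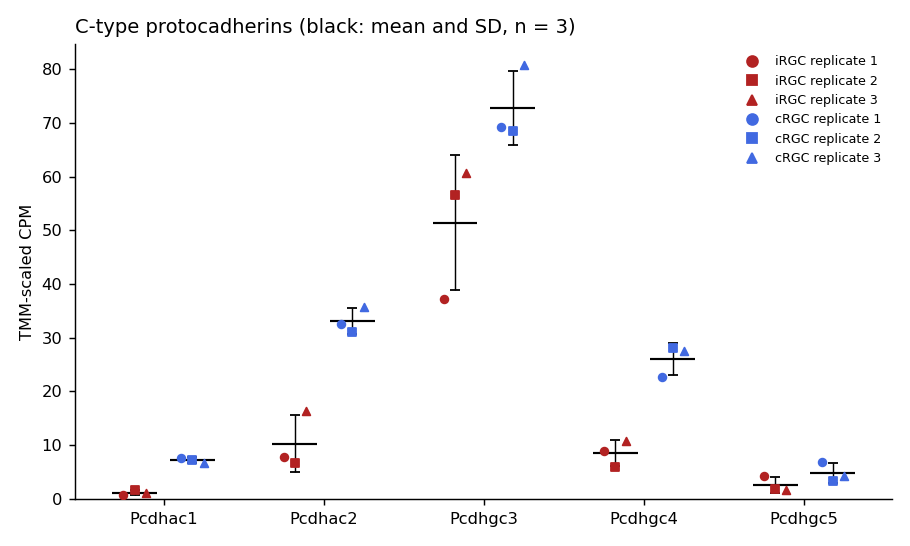
CPM (y axis, TMM-scaled) of the 5 C-type genes in each library, iRGC in red and cRGC in blue, with the mean and SD (n = 3) in black. Pcdhac1, Pcdhac2 and Pcdhgc4 show wide gaps between the populations, Pcdhgc3 a narrow one, and Pcdhgc5 overlaps.

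The makeup of the protocadherin RNA differed between the populations as the clusters fell by different amounts. Per kilobase of own bases, alpha genes held 7.43%, 10.0% and 14.2% of the level of all members in the iRGC libraries and 20.5%, 20.3% and 17.3% in the cRGC libraries (10.6 ± 3.43% against 19.4 ± 1.79%, SD, n = 3). Gamma genes held 70.9%, 68.2% and 62.0% in iRGCs and 54.9%, 54.0% and 59.7% in cRGCs (67.0 ± 4.57% against 56.2 ± 3.03%). Neither of these overlapped between the populations. The share of beta genes did overlap, at 22.5 ± 1.19% and 24.4 ± 1.32%. Within the alpha cluster, the C-type genes held 29.3 ± 6.39% in iRGCs and 28.2 ± 4.96% in cRGCs. Within the gamma cluster, the 3 C-type genes held 19.4% to 23.9% in iRGCs and 19.4% to 22.4% in cRGCs, the gamma A genes 54.0 ± 2.31% and 57.6 ± 2.09%, and the gamma B genes 24.0 ± 0.234% and 21.4 ± 1.00%. Of these classes, only the gamma B share was separated in all libraries, with 23.8% to 24.2% in iRGCs and 20.6% to 22.5% in cRGCs.

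**Figure D4:**
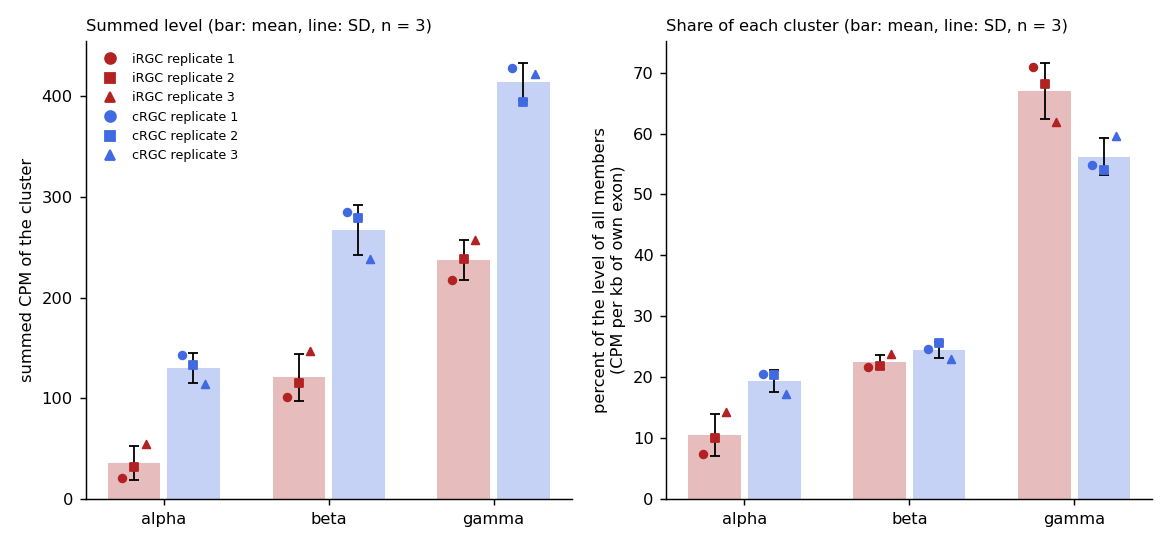
Left, summed CPM of each cluster, and right, percent of the level of all members (CPM per kilobase of own bases) held by each cluster. Bars are means over 3 libraries, lines the SD and marks the libraries (iRGC red, cRGC blue). The alpha sum is 3.65-fold, the beta sum 2.21-fold and the gamma sum 1.75-fold higher in cRGCs, and the share of gamma genes is higher in iRGCs.

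Since RGC markers were also lower in iRGCs, the cluster sums were set beside them in each library. Alpha genes had 7.05, 7.98 and 9.01 CPM for each 1000 CPM of the summed RGC markers in iRGCs and 9.14, 9.47 and 6.62 in cRGCs, which overlapped (8.01 ± 0.979 against 8.41 ± 1.56, SD, n = 3). Beta genes had 34.5, 28.9 and 24.3 in iRGCs and 18.2, 19.8 and 13.9 in cRGCs. Gamma genes had 74.0, 60.1 and 42.5 in iRGCs and 27.3, 28.0 and 24.5 in cRGCs. On this scale, beta and gamma genes were thus higher in every iRGC library, the reverse of their CPM. The marker sum includes Pou4f1 and Sncg, which the study reports as specific to cRGCs. It also includes Pou4f2 (Brn3b), whose locus carries Cre in the cRGC line. The part of these genes in the ratios was not tested. In the iRGC libraries, the CPM sums of all 3 clusters and of the RGC markers stood in the same order, lowest in replicate 1 and highest in replicate 3, while progenitor markers stood in the opposite order. The cRGC libraries did not share one order. There the RGC markers were highest in replicate 3 (17230 CPM), where the alpha and beta sums were lowest (114 and 239 CPM). The gamma sum was lowest in cRGC replicate 2 (394 CPM), as were the RGC markers (14080 CPM). Orders of 3 libraries are descriptions. The ratio does not show in which cells the RNA was made.

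Counts of some members depend on how reads under genes of the other strand were assigned. Whether strand was used in counting is not given in the sources used here. Of the members, 13 have own bases under an exon of a gene on the other strand. All own bases of Pcdhga10 lie under Gm26672, which had 18, 143 and 87 counts in iRGCs and 181, 199 and 205 in cRGCs. Pcdhga10 itself had 331, 323 and 278 counts in iRGCs and 434, 482 and 449 in cRGCs, although with this annotation a count that ignored strand would leave its reads ambiguous. Of Pcdhga11, 52.4% of the own bases lie under the same gene, and of Pcdhgc3, 46.1% lie under BC037039, which had at most 111 counts in a library where Pcdhgc3 had at least 1156. Without the 13 members, 32 members were still lower, 9 of them in the gamma cluster.

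Most genes listed for the choice of protocadherin promoters were higher in iRGCs. Of 11 genes of chromatin architecture, 10 were higher in iRGCs and 1 was lower, with a median log2 fold change of 0.63, where 23.3% of all tested genes were higher and 23.1% lower. Ctcf, which binds the promoters and enhancers of the clusters, had 243, 236 and 257 CPM in iRGCs and 137, 173 and 154 CPM in cRGCs (log2 fold change 0.66, SE 0.11, edgeR adjusted p = 0.00184). Stag2, a subunit of cohesin, had the largest rise (log2 fold change 1.08, SE 0.14, edgeR adjusted p = 0.000477), followed by Wapl, which releases cohesin from DNA (0.83), Rad21, another cohesin subunit (0.79), and Pds5a, a regulator of cohesin (0.71). Mau2, part of the cohesin loader, was lower (-0.46). Many of these genes also act in cell division, and the progenitor markers rose with them, whose part was not tested.

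Of 9 genes tied to silencing of the clusters, 4 were higher, 2 lower and 3 did not pass, where 23.3% of all tested genes were higher and 23.1% lower. The DNA methyltransferase Dnmt3b, which methylates the promoters of alternate genes in the embryo, had 35.9, 35.4 and 25.1 CPM in iRGCs and 11.6, 11.3 and 19.5 CPM in cRGCs (log2 fold change 1.19, SE 0.26, edgeR adjusted p = 0.00609). The maintenance methyltransferase Dnmt1 (0.66), the corepressor Trim28 (0.48) and Smchd1, a repressor of the clusters (0.45), were the others that rose. Wiz (-0.40) was among those that fell. Without cRGC replicate 1 or 2, 1 of these genes was lower.

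Of 6 genes that cleave protocadherins at the membrane, 3 were lower and none was higher, where 23.1% of all tested genes were lower. Adam10, the protease that sheds the extracellular part, had 232, 278 and 289 CPM in iRGCs and 460, 462 and 763 CPM in cRGCs (log2 fold change -1.08, SE 0.20, edgeR adjusted p = 0.00287). Psen2, a subunit of gamma-secretase, was also lower (-0.74). Of 16 partners and targets of the cytoplasmic tails, 6 were lower, 3 higher and 7 did not pass, with a median of -0.10, beside the same 23.1% lower and 23.3% higher among all tested genes. Cyfip2, a subunit of the WAVE complex, which alpha tails bind, was lower by 1.25 on the log2 scale (176, 205 and 287 CPM in iRGCs and 532, 481 and 576 CPM in cRGCs). The focal adhesion-related kinase Ptk2b (-1.70, at 0.649 to 1.87 CPM in iRGCs and 3.49 to 4.54 CPM in cRGCs), the synaptic adhesion protein Nlgn2 (-0.99) and the kinase Fyn (-0.81) were the other large falls. Nlgn1 (0.82), Cyfip1 (0.63) and Axin1 (0.47) were higher, so that both members of the pairs Cyfip1 and Cyfip2 and Nlgn1 and Nlgn2 passed, in opposite directions.

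Delta protocadherins lie outside the clusters and are each transcribed from their own locus. Of 9 tested, 5 were lower, 2 higher and 2 did not pass, where 23.1% of all tested genes were lower and 23.3% higher, and their log2 fold changes ran from -1.76 to 3.06. Pcdh9 had 36.2, 36.8 and 49.7 CPM in iRGCs and 127, 136 and 153 CPM in cRGCs (log2 fold change -1.76, SE 0.15, edgeR adjusted p = 0.000205). Pcdh1 (-1.65), Pcdh8 (-1.42) and Pcdh11x (-1.36) followed. Pcdh8 varied widely, with 5.24, 8.93 and 32.7 CPM in iRGCs and 49.9, 44.3 and 31.0 CPM in cRGCs. Its populations overlapped (SE 0.57, edgeR adjusted p = 0.0817). Pcdh18 had 39.2, 40.8 and 22.0 CPM in iRGCs and 2.65, 5.80 and 3.78 CPM in cRGCs (log2 fold change 3.06, SE 0.35, edgeR adjusted p = 0.000307), and Pcdh17 was also higher (0.45). The count of higher genes was 1 without cRGC replicate 1 or 3 or iRGC replicate 3.

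Other protein-coding genes within 500 kb of the clusters were called in both directions. Of 32 such neighbours, 25 were tested, 5 were higher, 5 lower and 15 did not pass, with a median of 0.20, beside 23.3% higher and 23.1% lower among all tested genes. Taf7, a general transcription factor whose gene lies between the beta and gamma clusters, was higher, with 54.1, 45.0 and 58.4 CPM in iRGCs and 25.4, 28.1 and 30.9 CPM in cRGCs (log2 fold change 0.90, SE 0.15, edgeR adjusted p = 0.00159). Rell2 (-1.83), the delta protocadherin Pcdh1 (-1.65), the ubiquitin ligase Rnf14 (-1.18) and Fchsd1 (-0.86) were lower. Arap3 (2.43), Slc35a4 (0.71) and the mitochondrial histidyl-tRNA synthetase Hars2 (0.54) were higher beside Taf7, and Arap3, a gene of vessels, varied widely among iRGC libraries, with 8.72, 30.8 and 1.92 CPM.

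**Figure D5:**
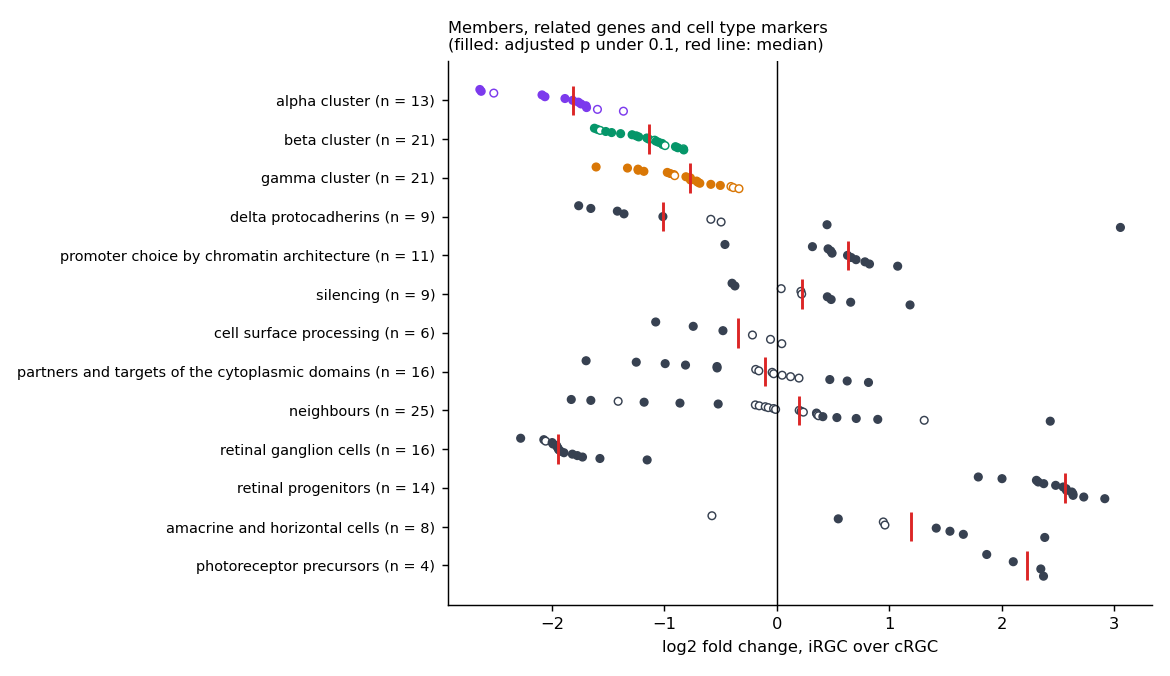
Log2 fold change (iRGC over cRGC, x axis) of each tested gene of the 3 clusters, of related gene lists, of neighbours on the chromosome and of cell type markers. Filled points passed an adjusted p of 0.1 and red lines are medians. The clusters lie at -1.81 (alpha), -1.14 (beta) and -0.77 (gamma), RGC markers at -1.94, chromatin architecture genes at 0.63 and progenitor markers at 2.56.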

How the data were processed

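The 6 RNA-seq libraries of GFP-positive retinal cells were analysed, 3 per population, and the 13 ATAC-seq samples were not analysed here. The authors aligned reads to mm10 (GRCm38) with HISAT2 2.1.0, counted them per Ensembl gene with HTSeq 0.11.1 and deposited the counts without normalization, 1 table per library. Versions are those of the submitters' processing notes. Symbols, positions and exons came from GENCODE M21 (GRCm38), which matched 46574 of 47069 identifiers. Own bases are exonic bases of no other deposited gene on the same strand. HTSeq's summary tallies were left out of the library sizes. Ambiguous ones were 0.618% to 0.649% of the tallies.

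The test was edgeR 4.0.16's quasi-likelihood test (R 4.3.3, filterByExpr, TMM, two-sided, no block), with p-values adjusted over the 15941 tested genes (Benjamini-Hochberg) and a threshold of 0.1. iRGC libraries had TMM factors of 1.03 to 1.10 and cRGC libraries of 0.921 to 0.952, and the biological coefficient of variation was 36.3%. An SE is the absolute log2 fold change over the square root of F. Counting error is smallest for members with many counts. Alternatives were DESeq2 1.42.0 size factors and test, upper quartile factors, limma 3.58.1 voom, other filters and thresholds, a replicate block and each library left out.

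The members and all lists were chosen with earlier results of these data known, so counts and medians of lists are descriptions. Named members are the C-type genes and, per cluster, the 3 with the highest level per kilobase and the 3 with the largest absolute log2 fold change. Of each related list, at most 4 genes past the threshold per direction are named, by size of change. Other genes were named for their role or their place, after their values were seen. Values of 2 genes of the related lists are not reported here.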

Additional observations from a re-analysis of the deposited data

How the results depend on the processing

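Over the alternative fits, with the threshold kept at an adjusted p of 0.1, the 19 named members gave 244 values, all of them negative, of which 221 stayed on the same side of the threshold, 20 lost the call and 3 gained it. The 44 members lower in iRGCs became 29 with a fold change threshold of 1 added and 34 at an adjusted p under 0.05, where of the named members Pcdha6, Pcdha9, Pcdhga1 and Pcdhgc3 lost the call, and the 17 gamma genes became 5 with the fold change threshold. The 10 alpha genes became 2 when members with under 50% own exonic bases were left out, by construction, as most alpha genes lie just under that share. The 17 gamma genes became 9 without members under a gene on the other strand, an alternative chosen after seeing the data, as were leaving out members with a count of 0 (43 lower) and adding the pseudogene Pcdhgb8 (44 lower). With each library left out in turn, 29 to 43 members were lower, 8 to 10 in the alpha, 9 to 17 in the beta and 11 to 17 in the gamma cluster. CPM of the library total moved the median of all genes by 0.19 (log2) and the summed gamma level from -0.80 to -0.60 (log2 ratio). Only the scaling differs between these values, and which scaling is nearer to the RNA content of the cells was not tested. With the replicate block, 37 members were lower, 9, 14 and 14 in the alpha, beta and gamma clusters, and of the named members Pcdha6, Pcdhb11 and Pcdhga1 lost the call. Deviations of same-numbered libraries were not correlated (r of -0.048 to -0.011), so the numbers were not taken as pairs. For members with few counts, such as Pcdha8, only large changes were detectable at this depth.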
